A study of Homo sapiens with 19 samples.

Results

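Aminoacyl-tRNA synthetases attach each amino acid to its tRNA, the step that sets the genetic code in translation. The set described here holds 36 of these genes, chosen by symbol: 20 encode enzymes that work in the cytosol and 16, whose symbols end in 2, encode enzymes of the mitochondrion. All 36 were found by Ensembl ID in each of the 3 gene tables, which together list 84354 gene IDs. The 19 libraries came from HCT116 and WiDr, established human colorectal carcinoma cell lines. HCT116 cells were exposed for 96 h to 10 µM GSK025 (GSK3235025, an inhibitor of the arginine methyltransferase PRMT5), to 5 µM GSK715 (GSK3368715, labelled as an inhibitor of PRMT1 and known to act on the type I enzymes of that family) or to DMSO, the solvent, and sequenced with short reads (n = 3 each). WiDr cells were exposed for 96 h to 5 µM GSK715 or DMSO and sequenced with short reads (n = 3 each) and, as full-length cDNA, on an Oxford Nanopore (ONT) instrument (n = 2 each). In both WiDr tables the control columns carry the name NC and were taken as DMSO by elimination.

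All of these enzymes are encoded in the nucleus. The cytosolic ones supply the ribosomes of the cell with charged tRNA, and several of them, among the members EPRS1, IARS1, KARS1, LARS1, MARS1, QARS1 and RARS1, assemble with scaffold proteins into the multi-synthetase complex. The mitochondrial ones are imported and charge the tRNAs that the mitochondrial genome encodes. GARS1 and KARS1 each give rise to a cytosolic and a mitochondrial protein, and mitochondrial glutaminyl-tRNA is made by EARS2 with an amidotransferase instead of a glutaminyl enzyme of its own. Genes of many cytosolic synthetases are known targets of ATF4, the transcription factor that is translated when amino acids run short or proteins misfold and eIF2 is phosphorylated.

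The short-read libraries of HCT116 held from 64.6 to 66.9 M gene counts each and those of WiDr from 59.6 to 82.4 M. An ONT library held only 1.45 to 1.67 M, so each ONT value rests on far fewer reads. Of 7 epithelial and intestinal markers, 6 reached 1 CPM in the DMSO libraries of each table, and the pan-leukocyte marker PTPRC averaged at most 0.677 CPM in any group. The summed epithelial markers were 7715 CPM in GSK025 and 5908 CPM in GSK715 cells, against 4493 CPM in DMSO cells of HCT116, and 22339 CPM in GSK715 cells, against 15087 CPM in DMSO cells of WiDr. Keratins made up most of these sums, but single markers differed in direction. EPCAM had 230.4 CPM in GSK025 and 252 CPM in GSK715 cells, against 247 CPM in DMSO cells of HCT116. In WiDr short reads EPCAM had 481 CPM in GSK715 cells, against 543 CPM in DMSO cells. CDH1 had 139.9 CPM in GSK025 and 147 CPM in GSK715 cells, against 104 CPM in DMSO cells of HCT116. In WiDr short reads CDH1 had 623 CPM in GSK715 and 568 CPM in DMSO cells, and VIL1 had 103 and 64.8 CPM. The keratin KRT19 had 1101 CPM in GSK715 and 1342 CPM in DMSO cells of HCT116. The 5 mesenchymal markers summed to 56.9 CPM in GSK025 and 30.7 CPM in GSK715 cells, against 28.0 CPM in DMSO cells of HCT116, and to 15.8 CPM in GSK715 cells, against 12.6 CPM in DMSO cells of WiDr. Over genes of at least 5 CPM, log2FC correlated with exonic length with Spearman's rho of -0.30 with GSK025 and -0.29 with GSK715 in HCT116, -0.06 in WiDr short reads and -0.01 by ONT, and over the members of at least 5 CPM with -0.01, 0.27, -0.22 and -0.44. The median exonic length was 5079 bases in the cytosolic and 3962 bases in the mitochondrial enzymes. The part of markers and length in the results was not tested. Levels below are CPM, counts per M counts after TMM scaling of the library sizes, given in the order of replicates. Changes are log2 fold changes (log2FC) with standard error (SE), and a gene is said to rise, fall or differ where edgeR's quasi-likelihood test gave an adjusted p (Benjamini-Hochberg over all genes tested) under 0.05. Whether replicates were grown apart is not given in the labels. The p-values therefore reflect library-to-library spread, which may be technical.

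Per kilobase of exon, the cytosolic enzymes were the abundant ones. In HCT116 with DMSO, AARS1, which charges alanine, had the highest length-scaled level (109 ± 0.372 RPKM, SD, n = 3), followed by the seryl enzyme SARS1 (69.1 ± 1.67 RPKM) and the glutaminyl enzyme QARS1 (62.9 ± 1.06 RPKM). The mitochondrial phenylalanyl enzyme FARS2 was the lowest (0.990 ± 0.146 RPKM). Of the 10 highest length-scaled levels in that group 9 were cytosolic, and the mitochondrial isoleucyl enzyme IARS2 was the exception (42.9 ± 1.78 RPKM). In WiDr with DMSO all of the 10 highest were cytosolic, led by the glycyl enzyme GARS1 (209.6 ± 2.17 RPKM), AARS1 (152 ± 2.31 RPKM) and SARS1 (138 ± 1.47 RPKM). Among the 35 pairs of neighbours in this order, the libraries of 14 pairs overlapped in HCT116 with DMSO and those of 12 pairs in WiDr with DMSO. Of the cytosolic enzymes, TARS3, a second threonyl enzyme, stood alone among the lowest levels in both lines. With the longest coding transcript as the length, 10 of the 10 highest levels in HCT116 with DMSO were cytosolic.

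Promoters were read from RefSeq (GRCh38.p14, 250 bases before to 50 bases after each annotated start), which held 16 of the 20 cytosolic and 14 of the 16 mitochondrial enzymes. LARS1, YARS1, TARS3, VARS1, AARS2 and VARS2 had no entry. The core of the C/EBP-ATF response element, TGATGNAA on either strand, through which ATF4 is known to act, was searched in each. It was found in 7 of the 16 cytosolic and 1 of the 14 mitochondrial enzymes, beside 4.46% of all 27305 genes with a promoter (3.62% of all 35116 promoters). A match is a description of the letters and not a site of binding. The matches of the cytosolic enzymes are shown because 7 of the synthetases share this core and their responses are set beside those of the other enzymes, each 5′ to 3′ on the strand of the gene, with the match in capitals.
AARS1: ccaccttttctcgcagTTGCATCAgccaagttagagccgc
CARS1: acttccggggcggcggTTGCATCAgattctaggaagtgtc
GARS1: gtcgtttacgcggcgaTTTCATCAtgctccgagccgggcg
IARS1: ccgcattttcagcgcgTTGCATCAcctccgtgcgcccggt
MARS1: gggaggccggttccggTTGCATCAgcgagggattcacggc
NARS1: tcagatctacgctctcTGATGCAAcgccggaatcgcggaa
TARS1: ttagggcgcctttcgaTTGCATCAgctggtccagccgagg
In all but NARS1 the match lay on the strand opposite to the gene, so that it reads TTGCATCA, or TTTCATCA in GARS1, here. The windows are AARS1 at chr16:70289670-70289709 (minus strand), CARS1 at chr11:3057402-3057441 (minus), GARS1 at chr7:30594829-30594868 (plus) and IARS1 at chr9:92293687-92293726 (minus). MARS1 is at chr12:57488048-57488087 (plus), NARS1 at chr18:57621799-57621838 (minus) and TARS1 at chr5:33440951-33440990 (plus). The first base of the match lay at -187 from the start in AARS1 and between -33 and 15 in the other 6. The only mitochondrial match was in YARS2, as TGATGGAA at -197. The NRF1 site, GCGCA followed by TGCGC on either strand, a motif of many nuclear genes for mitochondrial proteins, was found in the promoter of 1 member, MARS2, beside 1.52% of all genes with a promoter (1.24% of all promoters).

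With GSK025, the PRMT5 inhibitor, in HCT116, 15 of the 36 members rose and 10 fell, where 22.0% of all 19751 genes tested rose and 22.1% fell (44.1% in all). Of the 20 cytosolic enzymes 9 rose and 6 fell (median log2FC 0.10, and 8 higher and 8 lower with scaling by library totals instead). Of the 16 mitochondrial enzymes 6 rose and 4 fell (median 0.07, and 6 higher and 6 lower with library totals), beside a median of -0.02 over all genes. The groups did not overlap in CPM for 54.8% of all genes. The summed level of the cytosolic enzymes was 4157 ± 59.2 CPM in GSK025 cells and 3965 ± 26.4 CPM in DMSO cells, and that of the mitochondrial enzymes was 629.9 ± 9.98 CPM in GSK025 cells and 616 ± 7.83 CPM in DMSO cells (SD, n = 3 each). In bulk RNA, a lower level in every cell and a smaller share of cells with the mRNA cannot be told apart. The transcripts of the mitochondrial genome, which need the mitochondrial enzymes for their translation, took 3.54 ± 0.154% of counts in GSK025 cells and 5.95 ± 0.181% in DMSO cells.

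Among cytosolic enzymes the largest rises were of the valyl and histidyl enzymes. VARS1 had 386, 381 and 351 CPM in GSK025 cells, against 247, 246 and 259 CPM in DMSO cells (log2FC 0.57, SE 0.044, adjusted p = 3.8e-07). HARS1 had 148, 149.5 and 149 CPM in GSK025 cells, against 99.5, 105 and 105 CPM in DMSO cells (log2FC 0.53, SE 0.044, adjusted p = 6.7e-07). Each GSK025 library lay above each DMSO library for both genes. The methionyl enzyme MARS1 had 235, 237 and 239 CPM in GSK025 cells, against 176, 172 and 181 CPM in DMSO cells (log2FC 0.43, SE 0.037, adjusted p = 8.8e-07). FARSA, the catalytic alpha subunit of the phenylalanyl enzyme, had 112, 116 and 119 CPM in GSK025 cells, against 83.6, 94.4 and 86.9 CPM in DMSO cells (log2FC 0.39, SE 0.050, adjusted p = 2.6e-05). All GSK025 libraries of MARS1 and FARSA were above the DMSO libraries. FARSB, the beta subunit with which FARSA forms a tetramer, did not pass (log2FC -0.11, adjusted p = 0.099). It passed as lower with library totals (adjusted p = 0.016) and without DMSO replicate 3 (adjusted p = 0.048). MARS1 shares 13.3% of its exonic bases with other genes, DDIT3 on the other strand among them, and without the strand of the reads its level is uncertain.

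The largest falls were of the arginyl and asparaginyl enzymes. RARS1 had 102, 104 and 108 CPM in GSK025 cells, against 172, 174 and 185 CPM in DMSO cells (log2FC -0.76, SE 0.067, adjusted p = 1.2e-06). NARS1 had 93.8, 85.8 and 98.0 CPM in GSK025 cells, against 146, 144 and 151 CPM in DMSO cells (log2FC -0.67, SE 0.070, adjusted p = 5.1e-06). For both, every GSK025 library was below every DMSO library. The leucyl enzyme LARS1 had 151, 142 and 155 CPM in GSK025 cells, against 225, 202 and 216 CPM in DMSO cells (log2FC -0.52, SE 0.050, adjusted p = 2.5e-06). TARS3 had 9.84, 9.26 and 10.3 CPM in GSK025 cells, against 15.4, 14.7 and 14.1 CPM in DMSO cells (log2FC -0.59, SE 0.10, adjusted p = 0.00034), again without overlap. The bifunctional glutamyl-prolyl enzyme EPRS1 (log2FC -0.39) and the threonyl enzyme TARS1 (log2FC -0.29) fell as well. KARS1, CARS1, IARS1, QARS1 and WARS1, which charge lysine, cysteine, isoleucine, glutamine and tryptophan, rose by log2FC 0.17 to 0.37. WARS1 lost its call with library totals (adjusted p = 0.085). All 7 enzymes of the multi-synthetase complex passed, 4 higher and 3 lower. AARS1, FARSB, GARS1, SARS1 and YARS1 did not pass, with log2FC between -0.11 and 0.11. AARS1 and YARS1 passed as higher in DESeq2 (adjusted p = 0.03 and 0.021) and without GSK025 replicate 3 (log2FC 0.16 and 0.14, adjusted p = 0.0025 and 0.032).

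Among mitochondrial enzymes FARS2 gave the largest change, at a low level. It had 9.68, 8.81 and 11.0 CPM in GSK025 cells, against 4.95, 5.39 and 4.01 CPM in DMSO cells (log2FC 1.04, SE 0.16, adjusted p = 0.00013). The prolyl enzyme PARS2 had 19.8, 21.1 and 20.3 CPM in GSK025 cells, against 14.9, 13 and 13.7 CPM in DMSO cells (log2FC 0.56, SE 0.12, adjusted p = 0.0019). YARS2, the tyrosyl enzyme, had 21.1, 22.9 and 26.5 CPM in GSK025 cells, against 17.8, 16 and 17.4 CPM in DMSO cells (log2FC 0.46, SE 0.093, adjusted p = 0.0012). None of these 3 overlapped between the groups. WARS2, the tryptophanyl enzyme, was lower, with 5.78, 5.47 and 6.11 CPM in GSK025 cells, against 8.76, 7.46 and 9.22 CPM in DMSO cells (log2FC -0.55, SE 0.14, adjusted p = 0.0061). CARS2, the cysteinyl enzyme, had 20.6, 20.3 and 22.5 CPM in GSK025 cells, against 26.8, 31.5 and 25.2 CPM in DMSO cells (log2FC -0.40, SE 0.098, adjusted p = 0.0048). AARS2, the alanyl enzyme, had 15.8, 13.9 and 14.2 CPM in GSK025 cells, against 17.6, 19.0 and 18.7 CPM in DMSO cells (log2FC -0.33, SE 0.095, adjusted p = 0.011). These falls also separated every library of the groups. HARS2, SARS2 and TARS2 rose (log2FC 0.32, 0.46 and 0.36) and IARS2 fell (log2FC -0.19), while EARS2, LARS2, MARS2, NARS2, RARS2 and VARS2 did not pass. RARS2 passed as lower with library totals (log2FC -0.23, adjusted p = 0.013). It also did without DMSO replicate 1 (log2FC -0.21, adjusted p = 0.026) or GSK025 replicate 3 (log2FC -0.20, adjusted p = 0.035). SARS2 shares 57% and HARS2 15.8% of its exonic bases with other genes, so both levels are uncertain.

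HARS1 and HARS2, the cytosolic and mitochondrial histidyl enzymes, lie head to head, with 84 bases between their annotated starts. The promoter of HARS2 (chr5:140691205-140691504, plus strand, RefSeq GRCh38.p14) is shown because it holds both starts, with the bases between them in capitals.
HARS2: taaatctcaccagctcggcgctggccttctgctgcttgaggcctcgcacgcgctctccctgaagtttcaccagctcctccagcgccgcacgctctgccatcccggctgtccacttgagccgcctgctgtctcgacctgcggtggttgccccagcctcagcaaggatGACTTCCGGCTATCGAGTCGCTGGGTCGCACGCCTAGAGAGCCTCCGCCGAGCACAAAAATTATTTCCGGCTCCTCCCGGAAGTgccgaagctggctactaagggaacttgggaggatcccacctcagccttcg
Both genes of the pair rose with GSK025 (log2FC 0.53 for HARS1 and 0.32 for HARS2). With GSK715 HARS1 rose in HCT116 (log2FC 0.26) and fell in WiDr short reads (log2FC -0.95), whereas HARS2 did not pass in either (log2FC -0.10 and 0.11, adjusted p = 0.17 and 0.063). Their exons overlap on opposite strands over a short stretch.

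With GSK715 in HCT116, 12 of the 20 cytosolic enzymes rose and 3 fell (median log2FC 0.26, 9 higher and 6 lower with library totals), and of the 16 mitochondrial enzymes 5 rose and 4 fell (median 0.03, and 4 higher, 6 lower and a median of -0.13 with library totals). Over all genes tested 22.1% rose and 24.2% fell (46.4% in all), with a median of -0.05, and the groups did not overlap for 57.0%. The summed cytosolic level was 4896 ± 51.3 CPM in GSK715 cells and 3965 ± 26.4 CPM in DMSO cells. The mitochondrial sum was 626 ± 7.52 CPM in GSK715 cells and 616 ± 7.83 CPM in DMSO cells, so the ratio of the sums was 7.83 ± 0.0690 in GSK715 cells and 6.44 ± 0.0831 in DMSO cells (SD, n = 3 each). Mitochondrially encoded transcripts took 3.22 ± 0.0660% of counts in GSK715 cells and 5.95 ± 0.181% in DMSO cells.

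The tyrosyl enzyme YARS1 rose most, with 471, 447 and 424 CPM in GSK715 cells, against 261, 268 and 262 CPM in DMSO cells (log2FC 0.76, SE 0.046, adjusted p = 3.6e-08). MARS1 had 289, 288 and 276 CPM in GSK715 cells, against 176, 172 and 181 CPM in DMSO cells (log2FC 0.69, SE 0.037, adjusted p = 1.2e-08). WARS1, the tryptophanyl enzyme, had 132, 134 and 135 CPM in GSK715 cells, against 92.5, 86.6 and 92.2 CPM in DMSO cells (log2FC 0.57, SE 0.044, adjusted p = 3e-07). All GSK715 libraries of these 3 genes stood above the DMSO libraries. AARS1 had 729, 712 and 683 CPM in GSK715 cells, against 489.8, 492 and 489 CPM in DMSO cells (log2FC 0.53, SE 0.046, adjusted p = 8.7e-07). GARS1 and QARS1 each rose by log2FC 0.50, IARS1 by 0.44, CARS1 by 0.41 and SARS1 by 0.35. Smaller rises of HARS1, KARS1 and VARS1 (log2FC 0.18 to 0.26) were lost with library totals, under which the median of all genes shifted by -0.16.

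EPRS1 fell. It had 141, 172 and 157 CPM in GSK715 cells, against 267, 280.0 and 274 CPM in DMSO cells (log2FC -0.81, SE 0.062, adjusted p = 2.8e-07), and no library of the groups overlapped. TARS3 had 11.6, 10.9 and 10.0 CPM in GSK715 cells, against 15.4, 14.7 and 14.1 CPM in DMSO cells (log2FC -0.44, SE 0.10, adjusted p = 0.0027). TARS1 passed with a small fall (log2FC -0.14, adjusted p = 0.035), but its groups overlapped, and the call was lost with RLE size factors, without a count filter, in DESeq2, with the replicate block (adjusted p = 0.053), with only the 2 groups compared (adjusted p = 0.092) and without single replicates. FARSA, FARSB, LARS1, NARS1 and RARS1 did not pass, with log2FC between -0.049 and 0.12. FARSA passed as higher with RLE size factors (adjusted p = 0.033), in DESeq2 (adjusted p = 0.02) and with only the 2 groups compared (adjusted p = 0.042). It also passed without DMSO replicate 2 (log2FC 0.17, adjusted p = 0.014).

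In mitochondria the asparaginyl enzyme NARS2 rose most. It had 56.9, 59.2 and 59.0 CPM in GSK715 cells, against 35.6, 36.7 and 38.3 CPM in DMSO cells (log2FC 0.66, SE 0.062, adjusted p = 1.6e-06). The valyl enzyme VARS2 had 39.5, 51.0 and 42.7 CPM in GSK715 cells, against 22.8, 30.6 and 31.9 CPM in DMSO cells (log2FC 0.64, SE 0.16, adjusted p = 0.0046), but it shares 22% of its exonic bases with GTF2H4 and its level is uncertain. AARS2 had 28.5, 24.8 and 23.1 CPM in GSK715 cells, against 17.6, 19.0 and 18.7 CPM in DMSO cells (log2FC 0.47, SE 0.094, adjusted p = 0.0011). The groups did not overlap for any of the 3. IARS2, the most abundant mitochondrial member, had 128, 138 and 141 CPM in GSK715 cells, against 185, 170.2 and 181 CPM in DMSO cells (log2FC -0.40, SE 0.048, adjusted p = 1.6e-05). CARS2 had 20.1, 20.3 and 23.6 CPM in GSK715 cells, against 26.8, 31.5 and 25.2 CPM in DMSO cells (log2FC -0.38, SE 0.098, adjusted p = 0.0059). The threonyl enzyme TARS2 had 25.4, 24.8 and 25.0 CPM in GSK715 cells, against 29.5, 30.0 and 31.0 CPM in DMSO cells (log2FC -0.27, SE 0.058, adjusted p = 0.0019). All GSK715 libraries of these falling genes were below the DMSO libraries. The leucyl enzyme LARS2 (log2FC 0.46) and EARS2 (log2FC 0.25) also rose, the second not with library totals (adjusted p = 0.19). MARS2 passed narrowly (log2FC -0.20, adjusted p = 0.038), and this call ended under RLE size factors, without a count filter, in DESeq2, with only the 2 groups compared and without single replicates. FARS2, HARS2, PARS2, RARS2, SARS2, WARS2 and YARS2 did not pass, though WARS2 passed as higher without GSK715 replicate 2 (log2FC 0.42, adjusted p = 0.035).

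**Figure D1:**
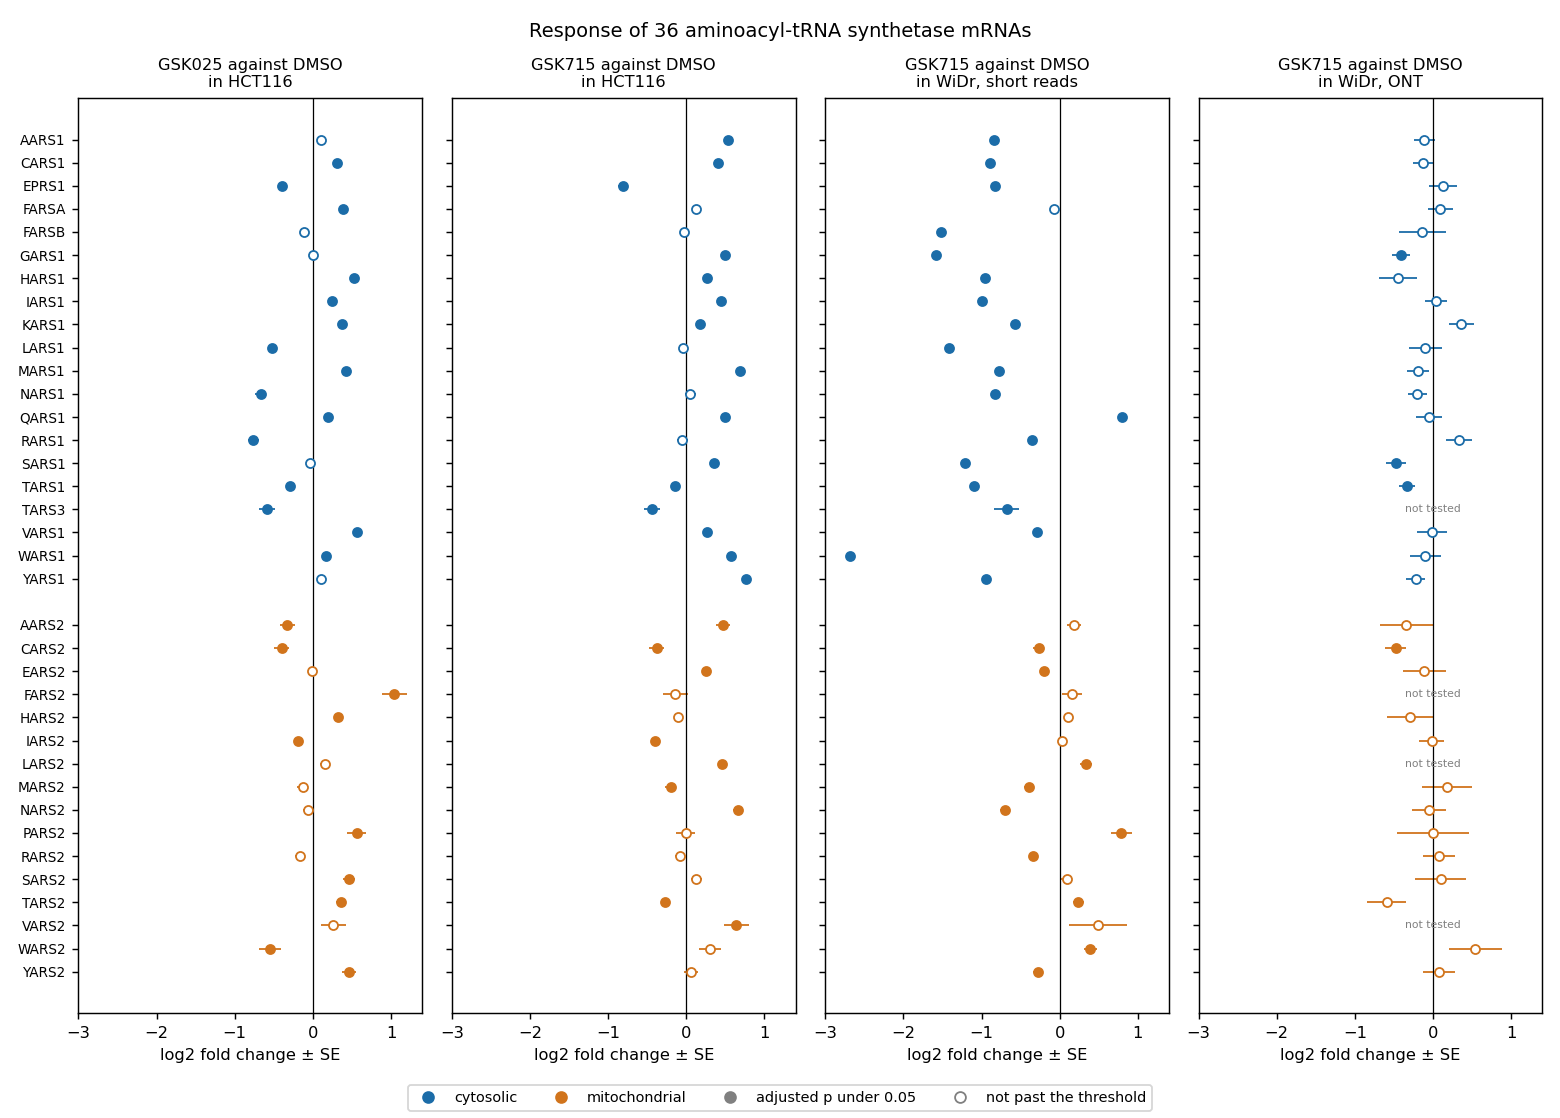
Log2 fold change of each of the 36 synthetase mRNAs (points, with bars for the SE) in the 4 comparisons of an inhibitor with DMSO. Filled points passed an adjusted p of 0.05, and the cytosolic enzymes lie left of 0 in the WiDr short-read panel, except QARS1 at 0.80.

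The inhibitors differ in target and dose, and their values rest on the same DMSO libraries, so they were compared directly. Between GSK715 and GSK025, 12 of the 20 cytosolic enzymes were higher and 5 lower with GSK715, and 5 of the 16 mitochondrial enzymes were higher and 7 lower, where 21.8% of all genes were higher and 22.5% lower (44.3% in all) and the groups did not overlap for 53.0%. NARS1 had 134, 163 and 159.9 CPM in GSK715 cells, against 93.8, 85.8 and 98.0 CPM in GSK025 cells (log2FC 0.72, SE 0.070, adjusted p = 3e-06). RARS1 had 149.9, 178 and 186 CPM in GSK715 cells, against 102, 104 and 108 CPM in GSK025 cells (log2FC 0.71, SE 0.067, adjusted p = 2.3e-06). These are the cytosolic enzymes that fell most with GSK025, and no library of GSK715 overlapped one of GSK025. YARS1 had 471, 447 and 424 CPM in GSK715 cells, against 282, 298 and 271 CPM in GSK025 cells (log2FC 0.66, SE 0.046, adjusted p = 1.5e-07). GARS1 had 341, 349 and 353 CPM in GSK715 cells, against 249, 243 and 246 CPM in GSK025 cells (log2FC 0.50, SE 0.035, adjusted p = 1.4e-07). The GSK025 libraries of GARS1 lay among those of DMSO (241, 252 and 243 CPM), and its GSK715 libraries above both. EPRS1, VARS1, FARSA and HARS1 were lower with GSK715 (log2FC -0.41, -0.32, -0.27 and -0.26), and so was KARS1 (log2FC -0.19). The CPM of EPRS1 was 141, 172 and 157 in GSK715 cells, against 219, 201 and 205 in GSK025 cells, without overlap. That of VARS1 was 311, 295 and 293 in GSK715 cells, against 386, 381 and 351 in GSK025 cells. FARSA had 95.3, 95.9 and 96.1 CPM in GSK715 cells, against 112, 116 and 119 CPM in GSK025 cells. HARS1 had 123, 129 and 119 CPM in GSK715 cells, against 148, 149.5 and 149 CPM in GSK025 cells. These genes did not overlap either.

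By size of log2FC, the largest differences between the inhibitors were in mitochondrial enzymes. FARS2 had 4.01, 4.69 and 4.32 CPM in GSK715 cells, against 9.68, 8.81 and 11.0 CPM in GSK025 cells (log2FC -1.18, SE 0.16, adjusted p = 5.2e-05). WARS2 had 11.3, 8.76 and 11.3 CPM in GSK715 cells, against 5.78, 5.47 and 6.11 CPM in GSK025 cells (log2FC 0.85, SE 0.14, adjusted p = 0.00029). AARS2 had 28.5, 24.8 and 23.1 CPM in GSK715 cells, against 15.8, 13.9 and 14.2 CPM in GSK025 cells (log2FC 0.80, SE 0.095, adjusted p = 1.7e-05). FARS2 was thus lower and WARS2 and AARS2 higher in every GSK715 library than in any GSK025 library. NARS2 had 56.9, 59.2 and 59.0 CPM in GSK715 cells, against 32.7, 37.6 and 35.4 CPM in GSK025 cells (log2FC 0.73, SE 0.062, adjusted p = 8.7e-07). TARS2 had 25.4, 24.8 and 25.0 CPM in GSK715 cells, against 39.1, 39.8 and 37.5 CPM in GSK025 cells (log2FC -0.63, SE 0.058, adjusted p = 1.7e-06). PARS2 had 16.4, 11.3 and 13.7 CPM in GSK715 cells, against 19.8, 21.1 and 20.3 CPM in GSK025 cells (log2FC -0.56, SE 0.12, adjusted p = 0.0019). No overlap was seen for these 3 genes either. TARS1, a small difference in the cytosolic group (log2FC 0.15), lost its call without GSK025 replicate 2 or 3 or GSK715 replicate 2 or 3 (adjusted p from 0.057 to 0.086). VARS2 passed without GSK025 replicate 1 (log2FC 0.58, adjusted p = 0.0076). CARS1 passed with RLE size factors (adjusted p = 0.029), in DESeq2 (adjusted p = 0.011) and without GSK715 replicate 3 (log2FC 0.14, adjusted p = 0.02).

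In the short reads of WiDr, most cytosolic synthetases were lower with GSK715. Of the 20 cytosolic enzymes 18 fell and 1 rose (median log2FC -0.87), and of the 16 mitochondrial enzymes 6 fell and 4 rose (median 0.10). Over all 19340 genes tested 33.6% rose and 32.2% fell (65.8% in all), with a median of 0.05, and the groups did not overlap for 72.2%. The summed cytosolic level was 3515 ± 13.5 CPM in GSK715 cells and 7204 ± 31.1 CPM in DMSO cells. The mitochondrial sum was 507 ± 7.87 CPM in GSK715 cells and 520.5 ± 6.0 CPM in DMSO cells (SD, n = 3 each). The ratio of the sums was 6.93 ± 0.0968 in GSK715 cells and 13.8 ± 0.106 in DMSO cells. Mitochondrially encoded transcripts took 7.60 ± 0.255% of counts in GSK715 cells and 5.47 ± 0.204% in DMSO cells. With library totals the cytosolic counts were the same, whereas 8 mitochondrial enzymes rose and 4 fell, and the median of all genes shifted by 0.13. Of 5 immune markers 2, LYZ and CD14, reached 1 CPM in WiDr. The summed level of the 5 was 3095 CPM in GSK715 cells and 1214 CPM in DMSO cells. Nearly all of it came from LYZ (3074 CPM in GSK715 cells and 1205 CPM in DMSO cells). CD14 had 20.9 CPM in GSK715 cells and 7.95 CPM in DMSO cells. The defining marker PTPRC had 0.0572 CPM in GSK715 cells and 0.113 CPM in DMSO cells. The part of these markers in the result was not tested.

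**Figure D2:**
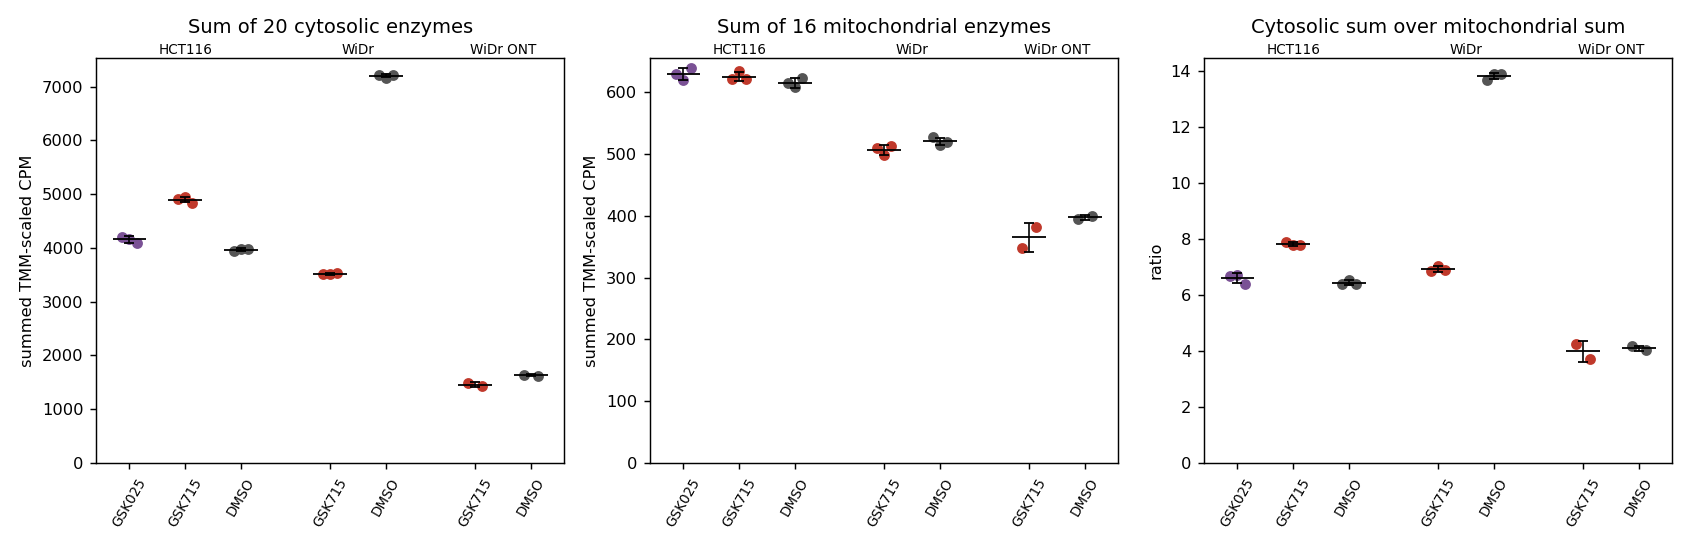
Summed CPM of the 20 cytosolic enzymes (left), of the 16 mitochondrial enzymes (middle) and their ratio (right) in each library (points), with the mean and SD as bars. The ratio is between 6.44 and 7.83 in every other short-read group and 13.8 in WiDr with DMSO.

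WARS1 had the largest fall of any member in the comparisons of an inhibitor with DMSO. It had 105, 107 and 104 CPM in GSK715 cells, against 685, 667 and 675 CPM in DMSO cells, 6.40-fold lower (log2FC -2.68, SE 0.027, adjusted p = 3.6e-12). GARS1 had 293, 287 and 296 CPM in GSK715 cells, against 863, 868 and 880.3 CPM in DMSO cells, 2.98-fold lower (log2FC -1.58, SE 0.024, adjusted p = 2.5e-11). For both genes the highest GSK715 library lay far below the lowest DMSO library. FARSB had 33.3, 31.8 and 30.3 CPM in GSK715 cells, against 92.1, 88.2 and 92.6 CPM in DMSO cells (log2FC -1.52, SE 0.044, adjusted p = 1.2e-09). LARS1 had 124, 119.6 and 121 CPM in GSK715 cells, against 319, 325 and 329.7 CPM in DMSO cells (log2FC -1.42, SE 0.029, adjusted p = 1.5e-10). FARSA, the partner subunit of FARSB, did not pass, with 52.0, 53.6 and 52.1 CPM in GSK715 cells, against 54.5, 56.7 and 54.9 CPM in DMSO cells (log2FC -0.075, adjusted p = 0.11). WARS1 shares 10.6% of its exonic bases with other genes on the opposite strand, WDR25 among them, and its level is uncertain to that extent.

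WARS1 is known as a gene that interferon gamma induces, and RefSeq gives it 2 starts. The promoter of the downstream start (chr14:100375298-100375597, minus strand, GRCh38.p14) is shown because it belongs to the member with the largest fall, with a match to the interferon response element core in capitals.
WARS1: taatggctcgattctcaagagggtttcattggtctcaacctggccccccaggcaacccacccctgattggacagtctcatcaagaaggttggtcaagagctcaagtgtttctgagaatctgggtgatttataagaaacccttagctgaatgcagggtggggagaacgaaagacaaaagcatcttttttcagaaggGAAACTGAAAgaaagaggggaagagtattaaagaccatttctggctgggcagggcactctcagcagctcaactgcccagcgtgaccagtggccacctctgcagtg
The core was searched as GAAA, any 2 bases and GAAA on either strand, after the sequence was seen, and is present in 4.38% of all genes with a promoter (3.57% of all promoters). EARS2 was the only other member with a match. Neither promoter of WARS1 held TGATGNAA.

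The other cytosolic enzymes that fell are given in order of size. SARS1 (log2FC -1.21), TARS1 (-1.10), IARS1 (-1.0), HARS1 (-0.95), YARS1 (-0.94), CARS1 (-0.89), AARS1 (-0.84), EPRS1 (-0.83) and NARS1 (-0.83) were followed by MARS1 (-0.78), TARS3 (-0.68), KARS1 (-0.57), RARS1 (-0.36) and VARS1 (-0.29). The 7 enzymes with TGATGNAA in the promoter all fell, with log2FC from -1.58 to -0.78 and a median of -0.89. Of the 9 cytosolic enzymes whose promoter held no match, 7 fell and 1 rose, with a median of -0.83. With GSK715 in HCT116, 5 of the 7 rose and 1 fell (median 0.44), and of the 9 without a match 5 rose and 1 fell (median 0.18). With GSK025, 3 of the 7 rose and 2 fell (median 0.10), and of the 9 without a match 5 rose and 2 fell (median 0.17). By ONT, described further on, 2 of the 7 and 1 of the 9 fell (medians -0.19 and -0.05). Whether these sets differ was not tested. Of the multi-synthetase complex 6 of 7 enzymes fell. QARS1 was the exception and the only cytosolic enzyme that rose, with 157, 160.1 and 148 CPM in GSK715 cells, against 87.1, 90.7 and 89.5 CPM in DMSO cells (log2FC 0.80, SE 0.037, adjusted p = 3.3e-08), without overlap.

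The mitochondrial enzymes that passed had log2FC between -0.70 and 0.79. PARS2 had 16.8, 11.8 and 14.5 CPM in GSK715 cells, against 8.58, 7.68 and 8.70 CPM in DMSO cells (log2FC 0.79, SE 0.13, adjusted p = 0.00049). WARS2 had 21.7, 23.5 and 23.4 CPM in GSK715 cells, against 17.4, 15.7 and 19.0 CPM in DMSO cells (log2FC 0.39, SE 0.083, adjusted p = 0.0019). LARS2 had 22.6, 24.4 and 22.6 CPM in GSK715 cells, against 20.1, 17.8 and 17.0 CPM in DMSO cells (log2FC 0.34, SE 0.079, adjusted p = 0.0034). Each GSK715 library of these 3 was above the DMSO libraries. NARS2 had 22.1, 21.5 and 21.2 CPM in GSK715 cells, against 32.6, 36.9 and 35.5 CPM in DMSO cells (log2FC -0.70, SE 0.064, adjusted p = 5.2e-06). The methionyl enzyme MARS2 had 26.0, 25.3 and 27.6 CPM in GSK715 cells, against 36.8, 33.4 and 33.2 CPM in DMSO cells (log2FC -0.39, SE 0.065, adjusted p = 0.0004). The arginyl enzyme RARS2 had 39.2, 39.2 and 37.2 CPM in GSK715 cells, against 49.9, 45.6 and 50.7 CPM in DMSO cells (log2FC -0.34, SE 0.054, adjusted p = 0.00031). For these the GSK715 libraries were all below the DMSO libraries. TARS2 also rose (log2FC 0.24) and CARS2, EARS2 and YARS2 fell (log2FC -0.27, -0.20 and -0.28), where library totals ended the calls of CARS2 and EARS2. The TARS2 call ended without DMSO replicate 3 (adjusted p = 0.057) or GSK715 replicate 3 (adjusted p = 0.05), and AARS2 passed as higher without DMSO replicate 1 (log2FC 0.26, adjusted p = 0.021). VARS2 ranged from 5.69 to 19.2 CPM among its GSK715 libraries, did not pass, and passed as higher without GSK715 replicate 2 (log2FC 0.86, adjusted p = 0.002). FARS2, HARS2, IARS2 and SARS2 did not pass either.

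Set beside its mitochondrial counterpart for the same amino acid, the cytosolic enzyme had the lower log2FC in 18 of 18 pairs in WiDr short reads. The same count was 11 of 18 with GSK025 and 6 of 18 with GSK715 in HCT116, comparisons that share their DMSO libraries, and 6 of 13 in WiDr by ONT. EPRS1, FARS2 and TARS2 each enter 2 of these pairs. GARS1, KARS1 and QARS1 have no counterpart among the members and enter none. QARS1, left out in this way, rose in WiDr short reads (log2FC 0.80). The tryptophanyl enzymes were farthest apart in WiDr short reads (log2FC -2.68 for WARS1 and 0.39 for WARS2), followed by the leucyl enzymes (-1.42 for LARS1 and 0.34 for LARS2). The arginyl enzymes were closest (-0.36 for RARS1 and -0.34 for RARS2).

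**Figure D3:**
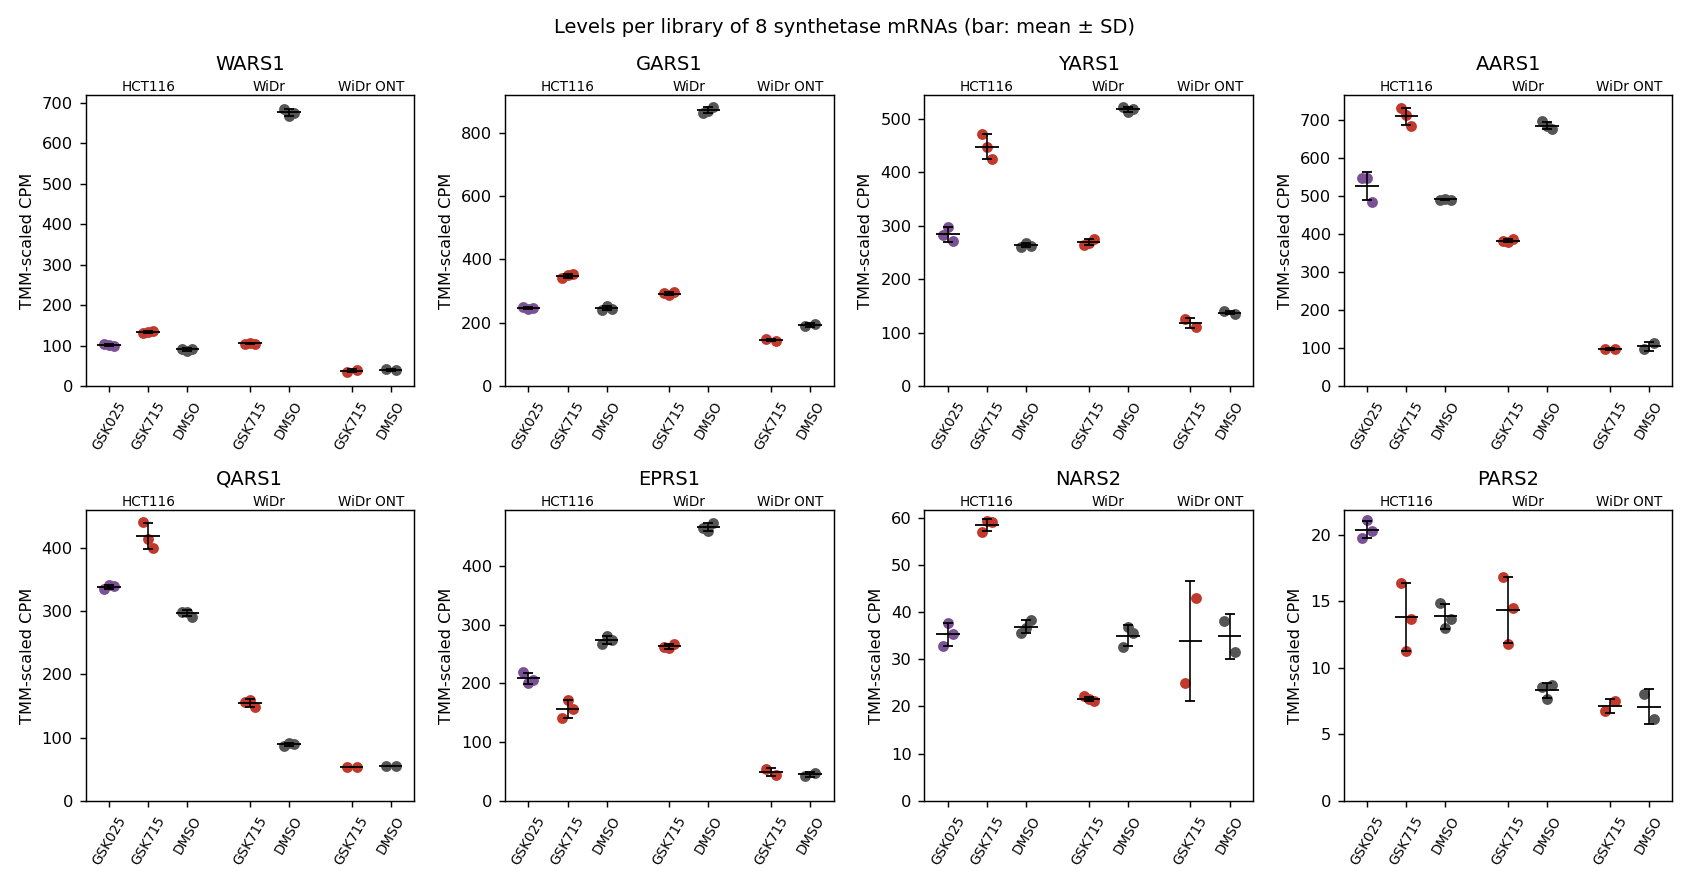
TMM-scaled CPM of 8 members in each library (points), with the mean and SD as bars, by line, read type and compound. Tables were normalized separately, so heights compare only within a table. WARS1 averaged 105 CPM with GSK715 and 675 CPM with DMSO in WiDr by short reads.

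The ONT libraries of WiDr gave a smaller response of the cytosolic enzymes. Of 32 members with enough counts, 4 fell and none rose, where 4.51% of all 15877 genes fell and 4.29% rose (8.80% in all) and the groups did not overlap for 50.1%. SARS1, GARS1, TARS1 and the mitochondrial CARS2 were those that fell. At an unadjusted p under 0.05 there were 6 members, and DESeq2 called 0. SARS1 had 74.1 and 89.2 CPM in GSK715 cells, against 116 and 109.7 CPM in DMSO cells (log2FC -0.47, SE 0.13, adjusted p = 0.017). GARS1 had 147 and 142 CPM in GSK715 cells, against 188 and 196 CPM in DMSO cells (log2FC -0.41, SE 0.11, adjusted p = 0.011). TARS1 had 214 and 194 CPM in GSK715 cells, against 248 and 265 CPM in DMSO cells (log2FC -0.33, SE 0.10, adjusted p = 0.034). For all 3 both GSK715 libraries lay below both DMSO libraries. CARS2 had 69.4 and 70.8 CPM in GSK715 cells, against 94.7 and 101 CPM in DMSO cells (log2FC -0.48, SE 0.14, adjusted p = 0.02). These 4 calls were lost in DESeq2 (adjusted p from 0.35 to 0.54) and without a count filter, and leaving out any 1 of the 4 libraries left 0 to 2 of them.

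Counts in the ONT libraries were low for several members. WARS1 had 52 and 59 estimated counts in GSK715 cells, against 68 and 56 in DMSO cells, and a log2FC of -0.097 with a 95% interval of -0.48 to 0.29. That interval does not reach the short-read value of -2.68. FARSB had 22 and 24 estimated counts in GSK715 cells, against 30 and 23 in DMSO cells (log2FC -0.14, 95% interval -0.73 to 0.45). QARS1, the enzyme that rose in the short reads, had 53.9 and 53.1 CPM in GSK715 cells, against 55.4 and 55.5 CPM in DMSO cells (log2FC -0.052, SE 0.17, adjusted p = 0.91). The summed cytosolic level was 1452 ± 45.2 CPM in GSK715 cells and 1630.2 ± 16.7 CPM in DMSO cells, and the mitochondrial sum was 365 ± 23.8 CPM in GSK715 cells and 398 ± 3.89 CPM in DMSO cells (SD, n = 2 each). The medians of log2FC were -0.11 over 19 cytosolic and -0.02 over 13 mitochondrial enzymes, beside 0.00 over all genes. TARS3, FARS2, LARS2 and VARS2 had too few counts to be tested, with 1 to 14 estimated counts per library.

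Tested as an interaction, the GSK715 response was higher by ONT than by short reads for 15 of the 20 cytosolic enzymes and lower for QARS1 (median difference in log2FC 0.78), where 11.2% of all genes were higher and 8.69% lower (19.9% in all). That fit of 24055 genes includes those with enough counts in only 1 of the tables. Over the 11602 genes that passed the count filter in both, again an alternative chosen after the data were seen, 15 of 19 cytosolic enzymes were higher and 1 lower (median 0.68), and 1 of 13 mitochondrial enzymes was higher and 1 lower (median -0.05), where 21.0% of all genes were higher and 21.0% lower. WARS1 differed most (log2FC 2.63, SE 0.12, adjusted p = 8.3e-08), followed by FARSB (log2FC difference 1.42), LARS1 (1.36) and GARS1 (1.21). The joint fit gives each gene the same spread in both read types. Its SE and adjusted p may therefore understate the spread of the ONT libraries, whose own interval for WARS1 is wider than this SE allows. QARS1 differed by -0.80 (adjusted p = 0.00046). FARSA, HARS1 and VARS1 did not pass, and TARS3, with too few ONT counts, gives no information here. Of the mitochondrial enzymes TARS2 differed (log2FC difference -0.78, adjusted p = 0.011), and not without ONT DMSO replicate 1 (adjusted p = 0.084) or ONT GSK715 replicate 1 (adjusted p = 0.055). NARS2 passed as higher without ONT GSK715 replicate 1 (log2FC difference 1.02, adjusted p = 0.0038) and over the genes that passed the count filter in both tables (0.59, adjusted p = 0.049), and MARS2 without ONT DMSO replicate 1 (1.15, adjusted p = 0.033). Across members the ONT and short-read log2FC correlated with Pearson's r = 0.23 (n = 32 genes), beside 0.42 over 11602 genes tested in both. For the 19 cytosolic enzymes r was 0.37 and Spearman's rho 0.56, for the 13 mitochondrial ones 0.02 and -0.15, and rho over all these genes was 0.34. These are descriptions across genes, whose values share the libraries. The read types differ in depth, in read length and in how counts were made, and these cannot be told apart from a difference between the cultures.

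**Figure D4:**
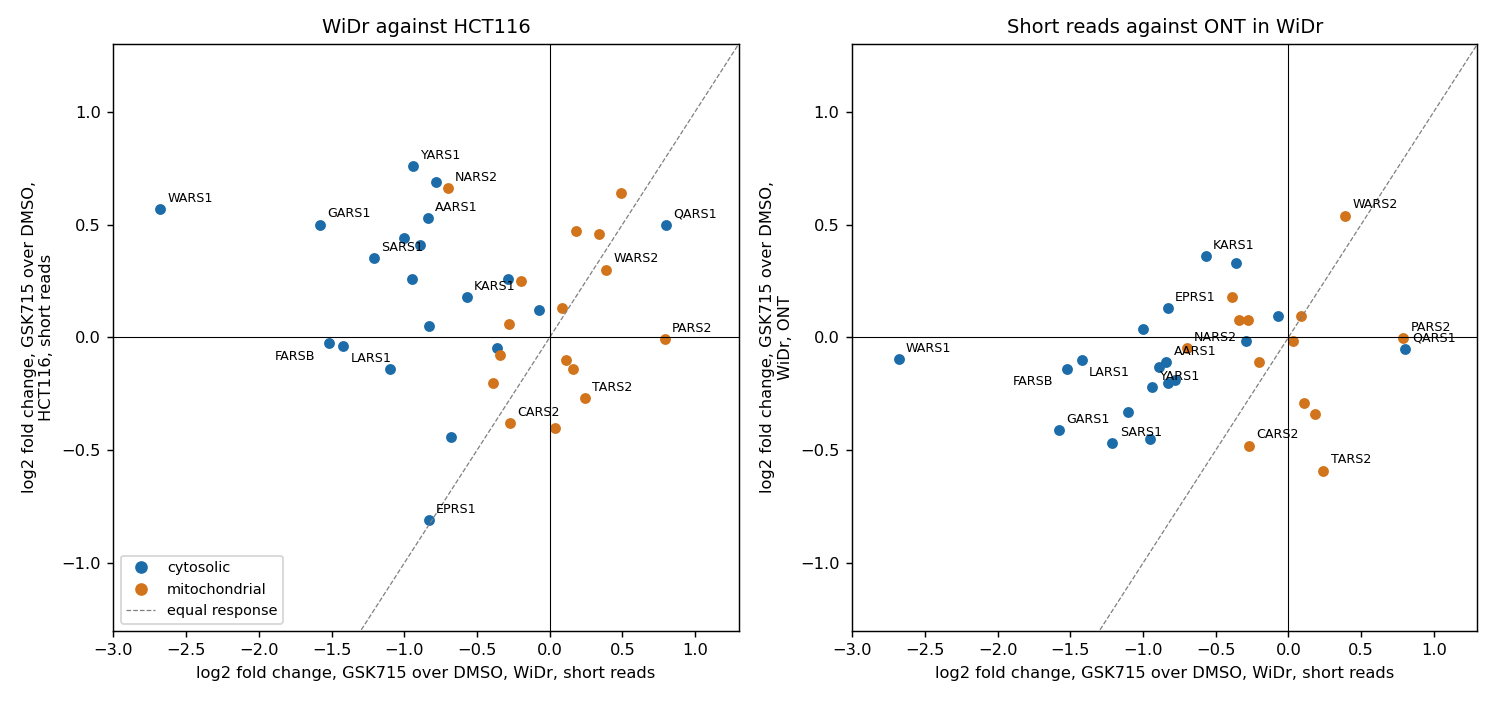
Log2FC with GSK715 of each member (points) in WiDr short reads on the horizontal axis, against HCT116 short reads (left) and WiDr ONT (right) on the vertical axes. The dashed line marks equal responses, and WARS1 at -2.68 on the horizontal axis lies at 0.57 in HCT116 and -0.10 in ONT.

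The difference between the responses of the 2 lines to GSK715 was tested as an interaction in the short reads. The libraries of both lines were scaled together for this test, so its values are not exactly the log2FC of one line minus that of the other. The response was lower in WiDr than in HCT116 for 17 of the 20 cytosolic enzymes and higher for QARS1 (median difference -1.33, and 15 lower, 2 higher and a median of -0.97 with library totals, under which FARSA and RARS1 did not pass), and for the 16 mitochondrial enzymes it was lower for 6 and higher for 3 (median -0.15, and 1 lower, 7 higher and a median of 0.21 with library totals). Over all 21791 genes 23.2% were higher and 23.5% lower (46.7% in all), with a median of 0.12, and library totals shifted that median by 0.35. Genes could enter this test through the counts of 1 line. Over the 16313 genes that passed the count filter in both tables, an alternative chosen after the data were seen, 16 cytosolic enzymes were lower and 1 higher (median -1.20), and 3 mitochondrial enzymes were lower and 4 higher (median -0.02), where 33.8% of all genes were higher and 27.3% lower. FARSA, AARS2, MARS2 and RARS2 did not pass there (adjusted p = 0.094, 0.17, 0.26 and 0.051). WARS1 differed by log2FC -3.31 (SE 0.044, adjusted p = 2.3e-14). GARS1 differed by -2.15, YARS1 by -1.78, SARS1 by -1.63, FARSB by -1.56 and MARS1 by -1.54. AARS1, CARS1, GARS1, HARS1, IARS1, KARS1, MARS1, SARS1, VARS1, WARS1 and YARS1 rose in HCT116 and fell in WiDr, though the rises of HARS1, KARS1 and VARS1 were lost with library totals. EPRS1 fell in both lines (log2FC -0.83 in WiDr and -0.81 in HCT116), and its difference did not pass (log2FC -0.091, SE 0.078, adjusted p = 0.38, 95% interval -0.24 to 0.062), though with library totals it passed with the opposite sign (0.26, adjusted p = 0.019). QARS1 rose in both lines and more in WiDr (log2FC 0.23, SE 0.056, adjusted p = 0.0039).

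Of the mitochondrial enzymes NARS2 differed most, since it fell in WiDr and rose in HCT116 (log2FC -1.43, SE 0.076, adjusted p = 4.8e-09). The response of EARS2, YARS2, RARS2, AARS2 and MARS2 was also lower in WiDr (log2FC difference -0.52, -0.41, -0.33, -0.36 and -0.26). Library totals ended all 5 of these calls and gave the opposite sign for RARS2 and MARS2, and the calls of AARS2 and MARS2 were lost under most other settings too. PARS2 (log2FC difference 0.73), TARS2 (0.44) and IARS2 (0.36) were higher in WiDr. HARS2 did not pass (log2FC difference 0.14, adjusted p = 0.088) but did with RLE size factors (0.18, adjusted p = 0.024), over the genes that passed the count filter in both tables (0.27, adjusted p = 0.002) and without 1 of 8 of the 12 libraries (adjusted p from 0.021 to 0.046). Across the 36 members the responses of the lines correlated with Pearson's r = -0.13, beside 0.16 over 16313 genes, as a description across genes.

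Genes around the synthetases were followed by lists chosen for function, read beside the shares of all genes given above. Of 17 genes of the ATF4 and eIF2 pathway, GSK715 in HCT116 raised 10 and lowered 2 (median log2FC 0.47), among them ATF3 (log2FC 1.68), SESN2 (1.54) and the glutathione-degrading enzyme CHAC1 (2.32). ATF4 itself, named for its role after its values were seen, rose (log2FC 0.86). The kinase of eIF2 that double-stranded RNA activates, EIF2AK2, fell (-1.39), and so did EIF2S1, the eIF2 alpha subunit (-0.53). In WiDr short reads 13 of the 17 fell and 3 rose (median -1.39). TRIB3 (-2.11) and SESN2 (-2.87) fell, NUPR1 (2.57) and EIF2AK4 (0.83), the kinase that senses uncharged tRNA, rose, and ATF4 did not pass (log2FC 0.06, adjusted p = 0.11). By ONT 6 of 15 fell and 1 rose (median -0.28, and 1 and 1 with DESeq2), with DDIT3 lower (log2FC -1.18) and NUPR1 higher (1.26). With GSK025 in HCT116 3 rose and 5 fell (median -0.08). DDIT3 had log2FC -1.13 with GSK025 and 0.94 with GSK715 in HCT116, and shares exonic bases with MARS1.

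Genes of amino acid supply were counted in the same way. Of 14 amino acid synthesis genes, GSK715 in HCT116 raised 9 and lowered 1 (median 0.55), with the asparagine synthetase ASNS, which overlaps other genes and is uncertain, at log2FC 1.4 and PHGDH, the entry enzyme of serine synthesis, at 1.10. In WiDr short reads 11 of 13 fell and 2 rose (median -1.17), with ASNS at -2.61, the serine enzyme PSPH at -2.47 and the glutamine synthetase GLUL at 1.77. By ONT 4 of 13 fell, among them GOT1 (-0.71) and GPT2 (-0.56), and DESeq2 called none of the 13. GSK025 raised 7 of 14 and lowered 3. Of 11 amino acid transporters 10 fell and 1 rose in WiDr short reads (median -1.80), SLC3A2 (-1.98) and SLC7A5 (-2.24), the chains of a transporter of large neutral amino acids, among those that fell. The same 2 genes rose with GSK715 in HCT116 (log2FC 0.74 and 0.92), where 4 transporters rose and 4 fell. By ONT 5 of 10 transporters fell, and none with DESeq2.

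Other parts of the translation apparatus moved in several directions in WiDr. A list of 7 genes of cytosolic elongation includes EEF1A1, the carrier of charged tRNA to the ribosome, and EEF2K, the kinase of the factor EEF2. In WiDr short reads 6 of the 7 rose, EEF2K among them, and EEF1B2 fell (median 0.72, EEF1A1 0.59, EEF2 0.83). With GSK715 in HCT116 6 rose and EEF2K fell (median 0.64). With GSK025 5 rose, and by ONT 4 (2 with DESeq2). Of 8 cofactors and scaffold proteins of the synthetases, 7 fell in WiDr short reads (median -0.84), such as the tRNA exporter XPOT (-1.50) and AIMP1 (-0.71), while AIMP2 did not pass. By ONT none of the 8 passed (median 0.04). In HCT116 2 of the 8 rose and 3 fell with GSK715, and 3 rose and 4 fell with GSK025. Of 20 tRNA modification genes 14 fell and 2 rose in WiDr short reads (median -0.38), NSUN2 (-1.03) among those that fell. With GSK715 in HCT116 6 of them rose and 8 fell, NSUN2 (-0.94) among the falls again, and by ONT 1 of 19 fell and 0 rose. A list of 8 genes joined partners of mitochondrial charging, such as the amidotransferase subunits QRSL1, GATB and GATC, with tRNA-modifying enzymes such as MTO1 and PUS1. In WiDr short reads 3 of them rose, GATB and MTFMT included, and 5 fell, PUS1 and MTO1 included (median -0.32). Of 9 mitochondrial translation factors 3 rose and 4 fell (median -0.06), whereas by ONT no gene of these 2 lists passed. The transcripts of 13 protein-coding genes of the mitochondrial genome had a median log2FC of 0.21 in WiDr short reads, with 9 higher and 1 lower, and of -0.69 with GSK715 in HCT116, with 12 lower.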

How the data were processed

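The authors deposited a table of gene counts from short reads for each line, and for ONT a table of estimated counts, rounded here (15.1% of its values were not whole). GRCh38, Salmon, minimap2, StringTie, HISAT2, cutadapt and DESeq2 are named in the submitters' processing notes. The annotation release and the strand setting are not given in the sources used here. No column of another sample was present (0).

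Each table was fitted with edgeR 4.0.16 (R 4.3.3, limma 3.58.1): filterByExpr (minimum count 10, total 15), TMM scaling and the quasi-likelihood test over all groups of the table, with p-values adjusted by Benjamini-Hochberg over all genes tested and called under 0.05. Differences between lines or read types were interaction terms in a joint fit, with the same spread per gene in both tables. The SE of a log2FC was taken as its absolute value over the square root of the F statistic of its test. The 95% intervals are the log2FC plus and minus 1.96 SE. This normal quantile ignores the few degrees of freedom, so the intervals may be too narrow, above all by ONT. The 95% intervals cover these libraries only. Alternatives were RLE size factors, library totals, no count filter, DESeq2 1.42.0, a replicate block, only the compared groups, each library left out, and, for the interactions and chosen after the data were seen, only genes that passed the count filter in both tables. The fit was also run on simulated counts with a smaller share of changed genes than was called in these data. The outcome of that run is not given, and no result here rests on it. Lengths, exon overlaps and coordinates came from GENCODE 29 on GRCh38, and a member that shares at least 10% of its exonic bases with other genes was called uncertain.

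The members and the lists were chosen with earlier results of these data known. In each comparison with libraries of its own, values per library are given for called members whose groups do not overlap, the 4 cytosolic and 3 mitochondrial with the largest rise and the same numbers with the largest fall, and from each list up to 2 called genes per direction with the smallest adjusted p.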

Additional observations from a re-analysis of the deposited data

Results flagged for a closer look

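The response to GSK715 differed between WiDr and HCT116 short reads for 27 members by edgeR's interaction test (adjusted p under 0.05). In the joint fit of both lines, with the direction WiDr minus HCT116, the log2FC differences in cytosolic enzymes were WARS1 -3.31, GARS1 -2.15, YARS1 -1.78, SARS1 -1.63, FARSB -1.56, MARS1 -1.54, IARS1 -1.50, LARS1 -1.45, AARS1 -1.44, CARS1 -1.37, HARS1 -1.29, TARS1 -1.04, NARS1 -0.95, KARS1 -0.82, VARS1 -0.61, RARS1 -0.38, FARSA -0.26, QARS1 0.23. In mitochondrial enzymes they were NARS2 -1.43, PARS2 0.73, EARS2 -0.52, TARS2 0.44, YARS2 -0.41, AARS2 -0.36, IARS2 0.36, RARS2 -0.33, MARS2 -0.26. The values of FARSA, MARS2 and RARS2 have the opposite sign with library totals, and these 3 and AARS2 did not pass over the genes that passed the count filter in both tables.

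The response to GSK715 in WiDr differed between ONT and short reads for 17 members by the same test. That test gives each gene the same spread in both read types and may understate the spread of the ONT libraries. In the joint fit, with the direction ONT minus short reads, the log2FC differences in cytosolic enzymes were WARS1 2.63, FARSB 1.42, LARS1 1.36, GARS1 1.21, IARS1 1.09, EPRS1 1.01, KARS1 0.98, TARS1 0.82, CARS1 0.81, QARS1 -0.80, SARS1 0.79, AARS1 0.78, YARS1 0.78, RARS1 0.74, NARS1 0.68, MARS1 0.64. In mitochondrial enzymes TARS2 differed by -0.78. No group has 4 or more samples, so single libraries were not tested as far from the others.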

How the results depend on the processing

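With library totals 12 members fell with GSK715 in HCT116 in place of 7, 9 rose in WiDr short reads in place of 5, and the response was higher in WiDr than in HCT116 for 9 in place of 4. That scaling moved the median of all genes by -0.16, 0.13 and 0.35 in these comparisons, and the split of all genes into higher and lower calls was 3650 and 4900 in place of 4338 and 4370 with GSK025, 2994 and 6343 in place of 4372 and 4785 with GSK715 in HCT116, 3474 and 5406 in place of 4302 and 4444 between the inhibitors, 7495 and 5300 in place of 6502 and 6225 in WiDr short reads, 592 and 991 in place of 681 and 716 by ONT, 7321 and 3203 in place of 5058 and 5129 between the lines, and 1802 and 3076 in place of 2697 and 2090 between the read types. Under library totals the difference between the lines had the opposite sign for EPRS1 (0.26), FARSA (0.09), MARS2 (0.09), RARS2 (0.03) and SARS2 (0.25); the cause was not tested. By ONT 0 members fell without a count filter and 0 with DESeq2 (4 at an unadjusted p under 0.05) in place of 4.

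With each library left out in turn, the numbers higher and lower were 15 to 17 and 10 to 11 with GSK025, 17 to 18 and 5 to 7 with GSK715 in HCT116, 16 to 18 and 12 between the inhibitors, 4 to 6 and 24 in WiDr short reads, 0 and 0 to 2 by ONT, 4 to 5 and 21 to 22 between the lines, and 15 to 16 and 1 to 2 between the read types. Of the single-member results under other settings, 1340 kept direction and side of the threshold, 30 gained and 41 lost a call and 5 changed sign; with libraries left out 1711 kept both, 21 gained and 52 lost a call. The labels link replicates of different groups only by number. Deviations of same-numbered libraries correlated between -0.034 and 0.034, which cannot show whether they were made together. With the replicate block 15 rose and 10 fell with GSK025, 17 and 6 with GSK715 in HCT116, 17 and 12 between the inhibitors, 5 and 24 in WiDr, 0 and 4 by ONT, 4 and 21 between the lines and 15 and 2 between the read types. Depth limits the ONT comparison, where 4 members had too few counts.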
